A study of Mus musculus with 22 samples.

Results

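Regions of open chromatin that the day 64 library holds and that the libraries of day 14, day 33 and liver lack were described here, with the genes they lie in and the RNA of those genes. A region was counted if its interval in the day 64 list was at least 50 bp wide, lay on chromosomes 1 to 19 or X and overlapped no interval of those 3 other lists by even 1 bp. The members were thus chosen by the intervals of these 4 lists and by no RNA value. The rule left 18503 of 543598 day 64 intervals of that width (3.4%), called day 64 only regions below; intervals that touch or overlap each other merge into 16867 stretches. By the same rule 81605 regions were only in day 14 (11.9% of its list), 8030 only in day 33 (1.43%) and 4150 only in liver (1.17%).

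The study follows mouse hepatoblastoma, a liver tumor, after YAP1 is switched off by withdrawal of doxycycline, and asks what the tumor cells become. Chromatin was mapped by Omni-ATAC, which uses a transposase to tag DNA that is accessible in nuclei, in 1 library each of YAP1on tumor, of days 14, 33 and 64 after YAP1 was switched off, and of liver labelled WT; the ATAC labels name no mouse or strain. RNA came from 14 bulk samples. The 3 hbHep samples, hepatocyte-like cells from tumor cells by the series' title, were livers of mice labelled FAH Delta Exon 5 at days 121, 114 and 117. The 3 FAH livers carried the same deletion in Fah, an enzyme of tyrosine breakdown, on NTBC, the drug that keeps such mice alive. The 4 YAP1on tumors and the 4 tumors at day 6 off doxycycline came from a B6N.FVB strain with the CAG-rtTA3 transgene, in which a broadly active promoter drives the doxycycline-dependent activator, and the labels give 1 mouse code for each of these tumor groups, so that mouse and treatment cannot be told apart. The day 64 library and the hbHep RNA are of different times. In bulk tissue fewer cells of a type and less RNA per cell cannot be told apart.

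Open chromatin marks DNA that is free for binding of regulatory proteins. Most short open sites are promoters and enhancers, while strongly transcribed genes can be accessible along their whole length. In liver, hepatocytes around the central vein receive Wnt signals, which stabilise beta-catenin; with TCF/LEF proteins it turns on genes of glutamine, drug and bile acid metabolism. The same signal turns on its own brakes, among them Axin2, Nkd1, Rnf43, Znrf3 and Notum. Hepatoblastoma is known for activating mutations of beta-catenin.

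The promoter sequences that show where such regions meet a gene start are given first. They are the 250 bases before a RefSeq start (GRCm38.p6, the same assembly as mm10), 5' to 3' on the gene's strand, for the genes named below for the size of their RNA difference between hbHep and FAH liver that had region bases in this stretch. Capitals mark the bases inside a day 64 only region. Several of these genes have more than 1 start, and the starts shown for Nkd1, Lef1, Acsm2 and Duoxa1 lie inside the gene's RefSeq span. For Lef1 the stretch before the first base of the span had 20 region bases and is not printed.
Nkd1 (chr8:88527383-88527632, plus strand): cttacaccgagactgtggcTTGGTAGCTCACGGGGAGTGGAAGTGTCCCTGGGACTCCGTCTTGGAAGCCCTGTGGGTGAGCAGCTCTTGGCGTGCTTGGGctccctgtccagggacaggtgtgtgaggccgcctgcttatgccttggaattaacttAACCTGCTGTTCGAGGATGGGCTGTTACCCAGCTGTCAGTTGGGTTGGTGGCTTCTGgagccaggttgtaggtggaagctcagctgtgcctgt
Lef1 (chr3:131112541-131112790, plus strand): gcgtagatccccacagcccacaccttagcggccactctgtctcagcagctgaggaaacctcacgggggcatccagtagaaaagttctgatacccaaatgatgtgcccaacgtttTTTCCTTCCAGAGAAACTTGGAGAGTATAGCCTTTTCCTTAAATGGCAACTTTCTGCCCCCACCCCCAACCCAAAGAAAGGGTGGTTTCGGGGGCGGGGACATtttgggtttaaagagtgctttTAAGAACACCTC
Duoxa1 (chr2:122313731-122313980, minus strand): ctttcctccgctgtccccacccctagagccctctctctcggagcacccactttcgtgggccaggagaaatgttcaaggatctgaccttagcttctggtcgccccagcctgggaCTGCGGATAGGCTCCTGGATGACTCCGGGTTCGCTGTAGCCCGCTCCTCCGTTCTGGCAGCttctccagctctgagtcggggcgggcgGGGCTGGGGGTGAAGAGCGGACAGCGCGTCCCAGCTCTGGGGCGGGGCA
Col8a1 (chr16:57754738-57754987, minus strand): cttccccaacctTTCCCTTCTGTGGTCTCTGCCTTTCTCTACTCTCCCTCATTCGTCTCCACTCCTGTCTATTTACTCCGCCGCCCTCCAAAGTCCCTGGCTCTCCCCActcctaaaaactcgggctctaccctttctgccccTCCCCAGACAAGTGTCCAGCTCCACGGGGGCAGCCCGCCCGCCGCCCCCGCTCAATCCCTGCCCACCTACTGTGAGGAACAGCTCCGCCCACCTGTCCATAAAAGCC
Brinp3 (chr1:146495379-146495628, plus strand): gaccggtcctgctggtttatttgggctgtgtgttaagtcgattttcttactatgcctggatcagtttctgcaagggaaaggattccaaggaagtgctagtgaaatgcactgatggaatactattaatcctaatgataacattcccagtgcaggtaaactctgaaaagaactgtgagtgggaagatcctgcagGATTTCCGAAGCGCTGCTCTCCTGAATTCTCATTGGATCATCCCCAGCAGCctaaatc
Acsm2 (chr7:119561458-119561707, plus strand): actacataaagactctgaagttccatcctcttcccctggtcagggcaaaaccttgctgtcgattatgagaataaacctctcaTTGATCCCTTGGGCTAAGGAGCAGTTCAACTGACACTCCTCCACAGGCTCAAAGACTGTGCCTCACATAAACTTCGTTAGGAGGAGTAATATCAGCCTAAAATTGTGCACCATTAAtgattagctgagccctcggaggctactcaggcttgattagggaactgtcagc
Prss12 (chr3:123446663-123446912, plus strand): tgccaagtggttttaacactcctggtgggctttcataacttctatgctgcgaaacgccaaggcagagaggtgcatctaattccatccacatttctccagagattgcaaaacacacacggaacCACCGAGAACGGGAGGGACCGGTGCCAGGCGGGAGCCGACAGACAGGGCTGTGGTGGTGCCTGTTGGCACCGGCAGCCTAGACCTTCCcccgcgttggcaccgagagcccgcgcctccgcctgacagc
Nkd1, a feedback inhibitor of Wnt signalling, had 139 bases of this stretch inside such regions, and Lef1, a partner of beta-catenin on DNA, had 115. The stretch of Duoxa1, which brings dual oxidase to the cell surface, had 110, and that of Col8a1, a short-chain collagen, had 204. RNA of these genes and of Brinp3 was higher in hbHep than in FAH liver, and RNA of Acsm2, a mitochondrial acyl-CoA synthetase, and of Prss12, a serine protease, was lower.

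The regions were narrow and far from promoters. Their median width was 69 bp against 85 bp over the day 64 list, and 15.9% were at least 100 bp wide against 33.1% of the list. A promoter window, from 1000 bp before to 100 bp after a RefSeq start, held 251 of them (1.36%), against 10.5% of the list. The starts used here include none on chromosome 18, where 508 members lie, and lack some genes, Notum among them. No region could be placed in a promoter window there, though the shares count all regions. Gene bodies held 67.9% (list, 65.3%), and 30.8% lay between genes (list, 24.2%). The median distance to the nearest start was 34558 bp for the 17995 members on a chromosome with a start, against 16400 bp over 526489 intervals of the list. These values describe the members, since the rule that chose them removes sites shared with the other libraries, and they get no test.

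Many members lay just inside the rule. There were 5607 members 50 to 59 bp wide, and 7752 intervals 40 to 49 bp wide that were otherwise eligible stayed outside. Within 50 bp of an interval of the 3 other lists lay 5074 members (27.4%), and 2316 intervals were outside because of an overlap of 1 to 9 bp in all. The median distance to an interval of those lists was 165 bp, and 4871 members (26.3%) were more than 1000 bp from any. Day 14 had the longest list (688607 intervals of 50 bp or more) and liver the shortest (353408). The number of reads behind each list is not given in the sources used here, so the depth is unknown and absence from a list may be a matter of depth; this was not tested.

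The YAP1on list, which the rule did not use, overlapped 1335 members (7.22%) and 50.9% of the day 64 list. The same share was 26.1% of day 14 only regions, 10.4% of day 33 only regions and 12.5% of liver only regions. Over the whole lists of these libraries it was 50.3%, 51.9% and 56.4%. The rule removes sites shared between libraries, which can itself lower such shares, so the gap to the whole lists gets no test. YAP1on intervals are of another kind, with a median width of 21 bp against 70 bp at day 64.

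The members were not spread evenly. Chained across gaps of up to 5 kb, 54 runs of at least 20 members held 3049 of them (16.5%), while 5270 (28.5%) had no other member within 5 kb. Runs held 32.8% of day 14 only regions, 3.41% of day 33 only regions and 1.18% of liver only regions. Chromosome 19 had the highest share of its day 64 intervals among members (6.36%) and chromosome 15 the lowest (2.27%). Without the runs chromosome 19 fell to 3.4%, and the range was 2.06% (chromosome 17) to 4.12% (X).

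The largest run covered Nkd1. It reached from 88519644 to 88596978 on chromosome 8 (77.3 kb) and held 367 members. Day 64 intervals covered 60.2% of its bases, against 3.52% at day 14, 6.97% at day 33, 2.58% in liver and 3.64% in the YAP1on tumor. Of 427 day 64 intervals in the Nkd1 span, 347 (81.3%) were members. A second run of 87 members (chromosome 8, 88430466 to 88455909) ended 65.4 kb before the span; it was covered to 50.3% at day 64, 6.01% at day 14, 13.1% at day 33 and 1.51% in liver. In the plot of bases covered along Nkd1 the day 64 library is filled from the start of the gene to just past its end, where the other libraries show separate sites.

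**Figure D1:**
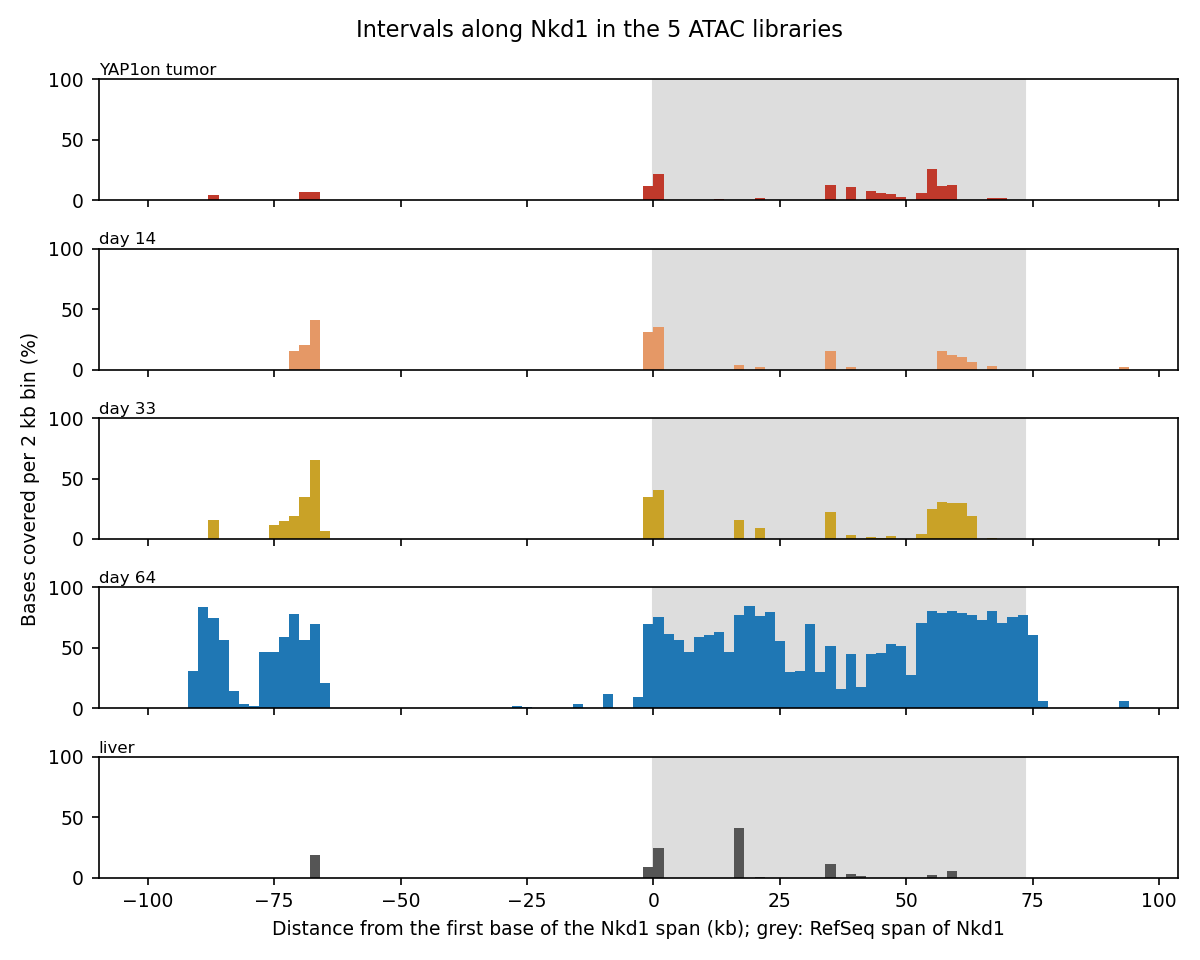
Bases covered by ATAC intervals (%) in bins of 2 kb, against distance from the first base of the RefSeq span of Nkd1 (kb), in 5 libraries (1 per panel); grey marks the span. At day 64 intervals cover 59.4% of the span, against 2.85% at day 14, 6.39% at day 33, 2.46% in liver and 3.49% in the YAP1on tumor.

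Nkd1 RNA was far higher in hbHep than in any other group. Its abundance, the deposited signal after rescaling between samples, was 13130, 2907 and 12910 in the 3 hbHep mice. It was 271, 234 and 305.9 in FAH liver, 446.4, 309.9, 612.1 and 641.1 in YAP1on tumors, and 485.8, 715.8, 594.9 and 703.1 in day 6 tumors. Every hbHep sample lay above every other sample, and the second hbHep mouse lay below the other two. On the log2(abundance + 1) scale used for all differences, hbHep exceeded FAH liver by 4.87 ± 0.43 (SE; limma, adjusted p = 8.03e-07), YAP1on tumors by 4.03 ± 0.41 (adjusted p = 9.21e-07) and day 6 tumors by 3.67 ± 0.41 (adjusted p = 4.51e-06).

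Some other Wnt feedback genes carried runs. Axin2, the scaffold of the complex that degrades beta-catenin, had 57 members among 193 day 64 intervals (29.5%). The run over its 3' part and beyond (chromosome 11, 108927936 to 108952414) was covered to 59.5% at day 64, 11.4% at day 14, 18.7% at day 33 and 2.9% in liver. Its RNA abundance was 963.7, 1222 and 1231 in hbHep and 79.75, 82.55 and 92.34 in FAH liver. It was 503.9 to 647.2 in YAP1on tumors and 688.9 to 807.9 in day 6 tumors, so hbHep overlapped no group. The differences were 3.72 ± 0.13 from FAH liver (limma, adjusted p = 1.04e-10), 0.95 ± 0.12 from YAP1on tumors (1.25e-05) and 0.64 ± 0.12 from day 6 tumors (0.000738).

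Rnf43, a ubiquitin ligase that removes Wnt receptors, had 144 members among 385 intervals (37.4%) in 2 runs of 92 and 53 regions. Its RNA was 2772, 1716 and 3402 in hbHep and 723, 548 and 832 in FAH liver, a difference of 1.87 ± 0.21 (limma, adjusted p = 6.46e-06). Tumors lay within the hbHep range at day 6 (2156 to 2468), with a difference of 0.14 ± 0.19 (adjusted p = 0.574), or 0.42 (0.0495) without hbHep mouse 2. Against YAP1on tumors (1549 to 2008) the groups overlapped and the difference of 0.52 ± 0.19 passed (adjusted p = 0.0339), but not without hbHep mouse 1 (0.112), hbHep mouse 3 (0.208), YAP1on tumor 1 (0.0817) or YAP1on tumor 3 (0.0714). Under quantile normalization it was 0.09 (0.663).

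Lef1 had 45 members among 62 intervals (72.6%), 8 of them in promoter windows. Its RNA was 373.2, 333.2 and 465 in hbHep, 30.56, 32.69 and 21.96 in FAH liver, 29.17 to 36.83 in YAP1on tumors and 39.09 to 64.66 in day 6 tumors. No other sample reached the hbHep samples, and the differences were 3.74 ± 0.23 (limma, adjusted p = 1.9e-08), 3.49 ± 0.22 (7.41e-09) and 2.87 ± 0.22 (1.02e-07). Notum, a secreted enzyme that inactivates Wnt proteins, had 12 members among 33 intervals and RNA of 3339, 1969 and 3873 in hbHep against 1175, 685 and 1015 in FAH liver (1.65 ± 0.24, adjusted p = 6.72e-05). Tnfrsf19, a receptor that Wnt signalling turns on, had 33 among 147. Its RNA was higher than in FAH liver by 3.06 ± 0.24 (adjusted p = 2.25e-07), and its differences of -0.40 ± 0.22 from YAP1on tumors and 0.29 ± 0.22 from day 6 tumors did not pass (adjusted p = 0.144 and 0.312). They were -0.66 (0.0206) without hbHep mouse 3 and 0.61 (0.0181) without hbHep mouse 2.

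In a list of 17 Wnt feedback and target genes, chosen after values were seen, 667 of 1643 intervals were members (40.6%), 347 of them in Nkd1. The share over the day 64 list was 3.4%. Of the 17 genes 12 had a member in the body, and 8 had 5 or more. RNA of 12 of the 16 tested was higher in hbHep than in FAH liver and of 1, Dkk4, lower, where 19.9% of 17953 tested genes were higher and 17.1% lower. Znrf3 had 7 members among 117 intervals, Lgr5 3 among 63, Nkd2 1 among 19 and Fzd7 none among 30. RNA of Znrf3 and Lgr5 exceeded FAH liver by 1.98 ± 0.20 (limma, adjusted p = 2.81e-06) and 3.12 ± 0.13 (2.09e-10). Nkd2 (-0.24 ± 0.33, 0.609) and Fzd7 (0.17 ± 0.22, 0.581) did not pass.

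Tbx3, a T-box repressor downstream of beta-catenin, had 12 members in its span. A run of 51 members lay 31.3 kb before the span (chromosome 5, 119620789 to 119639197), covered to 52.9% at day 64 against 15.3% at day 14, 20.2% at day 33 and 2.8% in liver. Tbx3 RNA was 3668, 3364 and 5323 in hbHep, 598.9 to 834.8 in FAH liver and 3217 to 3642 in day 6 tumors, with differences of 2.50 ± 0.17 (limma, adjusted p = 5.68e-08) and 0.23 ± 0.16 (0.256). The gene that the run acts on, if any, was not tested.

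Some genes of the pathway had higher RNA and no members. Sp5, a beta-catenin target, had no member among 19 intervals in its span, and its RNA exceeded FAH liver by 3.95 ± 0.20 (limma, adjusted p = 3.01e-09). The Sp5 span was already covered to 57.4% at day 14 and 65.1% at day 33, beside 69.3% at day 64. Apcdd1, a Wnt inhibitor at the membrane, had no member either and a difference of 5.44 ± 0.25 (1.1e-09). Its span held only 1 day 64 interval, and it lies on chromosome 18, for which no starts were used. Glul and Oat, the pericentral enzymes of glutamine and ornithine metabolism, had none among 73 and 129 intervals. Glul was already covered to 82.5% at day 14 and 66% in liver, and its RNA exceeded FAH liver by 3.65 ± 0.35 (1.53e-06).

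In the list of 22 pericentral and beta-catenin genes, 17 had a member in the gene body. Of 3065 day 64 intervals in these genes 724 were members (23.6%), beside 3.4% over the day 64 list, and 347 of them were in Nkd1. Most of the rest were in Rnf43 (144), Axin2 (57), Lef1 (45) and Tnfrsf19 (33). These genes, like Nkd1, are also in the Wnt list above, so the 2 lists count the same members. Of the genes outside the Wnt list none held more than 16 (Lect2). RNA of 18 of the 22 was higher in hbHep than in FAH liver and none lower, with a median difference of 2.86, beside the shares of all genes given above. Against YAP1on tumors 20 were higher and none lower (all genes, 28.8% and 26.3%), and against day 6 tumors 14 and none (24.1% and 21.7%). Among those with members were Lect2, a secreted hepatocyte protein (16 members, 2.37 ± 0.22 against FAH liver, limma, adjusted p = 1.16e-06), and Rhbg, an ammonia transporter (10 members, 4.54 ± 0.27, 1.17e-08). Rgn, a calcium-binding lactonase, had 12 members and a difference of 0.12 ± 0.39 (0.84), or 0.74 (0.0397) without hbHep mouse 2. The list of 18 periportal genes had 11 members in 494 intervals (2.23%), and RNA of 17 was lower in hbHep than in FAH liver.

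**Figure D2:**
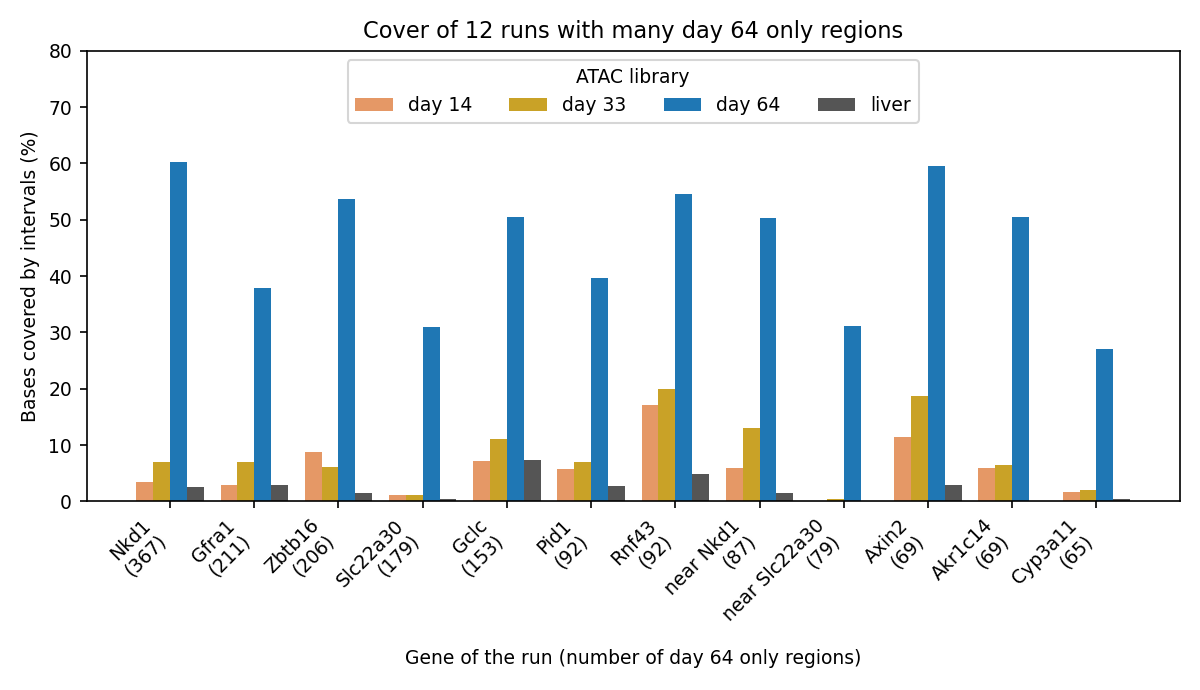
Bases covered by intervals (%) in 12 runs with many day 64 only regions, in the ATAC libraries of day 14, day 33, day 64 and liver (1 library each, no error bars); the number of such regions is in brackets. Day 64 covers 27.1 to 60.2% of each run, and the highest value of another library is 19.9% (day 33 at Rnf43); the rule itself sets this contrast.

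Several other large runs lay in genes of metabolism, and the RNA of these genes differed from FAH liver in both directions or not at all by the test. Against both tumor groups the RNA of Gclc, Akr1c14, Cyp3a11, Pid1, Aldh1a1 and Aox1 was higher in hbHep. The list of drug metabolism genes had 85 members in 1702 intervals (4.99%), 47 of them in Cyp3a11. The list of bile acid genes had 13 in 1622 (0.801%), where the share over the day 64 list was 3.4%. Slc22a30, an organic anion transporter gene, had 179 members among 213 intervals (84%), and another 79 members lay in a run 1.05 kb from its span. Its RNA was 3912, 408.6 and 3989 in hbHep and 12920, 10320 and 8261 in FAH liver, lower in every hbHep mouse (-2.48 ± 0.58, limma, adjusted p = 0.00386). It was 1342 to 1803 in YAP1on tumors, and the difference of 0.22 ± 0.55 (0.751) became 1.31 (3.37e-05) without hbHep mouse 2. Slc22a30 lies among close relatives, between which the estimation can share reads.

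Gclc, the catalytic subunit of the first enzyme of glutathione synthesis, had 115 members among 190 intervals (60.5%). Its RNA was 2165, 12160 and 3589 in hbHep, with mouse 2 the highest, and 8096, 4054 and 4833 in FAH liver. The groups overlapped (-0.25 ± 0.44, limma, adjusted p = 0.697), and without mouse 2 the difference was -0.96 (0.0184). Both tumor groups were lower, at 626.9 to 1083 and 718.6 to 971.9 (2.50 ± 0.41, adjusted p = 0.000111, and 2.48 ± 0.41, 0.000197). In a list of 21 NRF2 and glutathione genes, also chosen after values were seen, 168 of 942 intervals were members (17.8%). The share over the day 64 list was 3.4%. Of the 168 members 115 were in Gclc, and 8 of the 21 genes had a member in the body. RNA of 5 was higher and of 1 lower than in FAH liver, where 19.9% of all genes were higher and 17.1% lower. Against YAP1on tumors 18 were higher and 1 lower (all genes, 28.8% and 26.3%).

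Akr1c14, a hydroxysteroid dehydrogenase, had 75 members among 147 intervals (51%), and Cyp3a11, a major drug-oxidising cytochrome P450, had 47 among 62 (75.8%). RNA of Akr1c14 was 17570, 8978 and 18450 in hbHep and 42080, 28260 and 20710 in FAH liver (-1.03 ± 0.27, limma, adjusted p = 0.00723), which did not pass under quantile normalization (-0.50, 0.0685). That of Cyp3a11 was 126100, 75140 and 142100 against 396600, 233800 and 252500 (-1.37 ± 0.39, 0.0124), which did not pass without hbHep mouse 2 (0.0528) or FAH liver 1 (0.0555), nor under quantile normalization (-0.42, 0.404). Both were higher in hbHep than in YAP1on tumors, by 2.08 ± 0.25 (5.4e-06) and 2.74 ± 0.37 (1.56e-05). Both belong to families of similar genes, so the split between relatives is uncertain.

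Pid1, an inhibitor of insulin signalling, had 211 members among 840 intervals, and its RNA difference from FAH liver of 0.46 ± 0.14 (limma, adjusted p = 0.0211) did not pass without hbHep mouse 1 (0.0668), hbHep mouse 3 (0.108) or FAH liver 2 (0.061). It exceeded YAP1on tumors by 1.14 ± 0.13 (4.38e-06) and day 6 tumors by 0.70 ± 0.13 (0.000642). Aldh1a1, which makes retinoic acid, had 52 and a difference from FAH liver of 0.07 ± 0.20 (0.809), which was 0.73 (0.00935) under quantile normalization. It was 35210 to 44970 in hbHep, 11560 to 17390 in YAP1on tumors (6.76e-06) and 9936 to 10420 in day 6 tumors (2.02 ± 0.18, 6.74e-07). Aox1, an aldehyde oxidase, had 89 and a difference from FAH liver of -0.49 ± 0.15 (0.02), which did not pass without hbHep mouse 1 (0.0933) or FAH liver 1 (0.0857) and was 0.03 (0.884) under quantile normalization. It exceeded YAP1on tumors by 2.98 ± 0.14 (4.52e-10) and day 6 tumors by 2.30 ± 0.14 (8.98e-09). A run of 47 members on chromosome 19 (39373773 to 39381119) had no base covered at day 14, day 33 or in liver and 64.6% at day 64. It lies in the 222 kb RefSeq span of Cyp2c39, among near-identical Cyp2c genes, so the gene it belongs to is uncertain.

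Gfra1, a receptor for GDNF, and Zbtb16, a zinc finger repressor, held 211 and 208 members in one part of each gene. Over the whole span both were covered more at day 14 (39.9% and 54%) than at day 64 (26.2% and 36.7%). RNA of Zbtb16 was 848.8, 1812 and 994.9 in hbHep and 2153 to 3364 in YAP1on tumors, lower by 1.24 on the log2 scale (-1.24 ± 0.23, limma, adjusted p = 0.000401). It differed from FAH liver by -0.50 ± 0.25 (0.136), or by -0.82 (0.00855) without hbHep mouse 2. Gfra1 differed from FAH liver by 0.28 ± 0.26 (0.416), or by 0.63 (0.0324) without hbHep mouse 2. It exceeded YAP1on tumors by 0.86 ± 0.24 (0.00668), with groups that overlapped, and that difference was 0.40 (0.119) under quantile normalization. Against day 6 tumors Zbtb16 was lower (-1.10 ± 0.23, 0.00141), and the difference of Gfra1 did not pass (-0.15 ± 0.24, 0.62).

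Members also lay in genes for folding of secreted proteins in the endoplasmic reticulum. In a list of 15 such genes, again chosen after values were seen, 11 had a member in the body, and 141 of 493 intervals were members (28.6%). The share over the day 64 list was 3.4%. RNA of 12 of the 15 was lower and of none higher in hbHep than in FAH liver (all genes, 17.1% and 19.9%). Pdia4 and P4hb, which form disulfide bonds, had 29 and 16 members and differences of -0.52 ± 0.21 and -0.26 ± 0.14 that did not pass (limma, adjusted p = 0.0712 and 0.171). Hsp90b1, a chaperone, had 33 members among 67 intervals. Its RNA was 5876, 5120 and 6437 in hbHep against 10580, 9865 and 8390 in FAH liver (-0.73 ± 0.18, limma, adjusted p = 0.00605), which did not pass under quantile normalization (-0.28, 0.151). Hyou1, another chaperone, had 16 among 39 and a difference of -1.28 ± 0.20 (0.00019). Against YAP1on tumors 9 of the 15 were higher and 1 lower (all genes, 28.8% and 26.3%), and under quantile normalization 7 and 4.

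**Figure D3:**
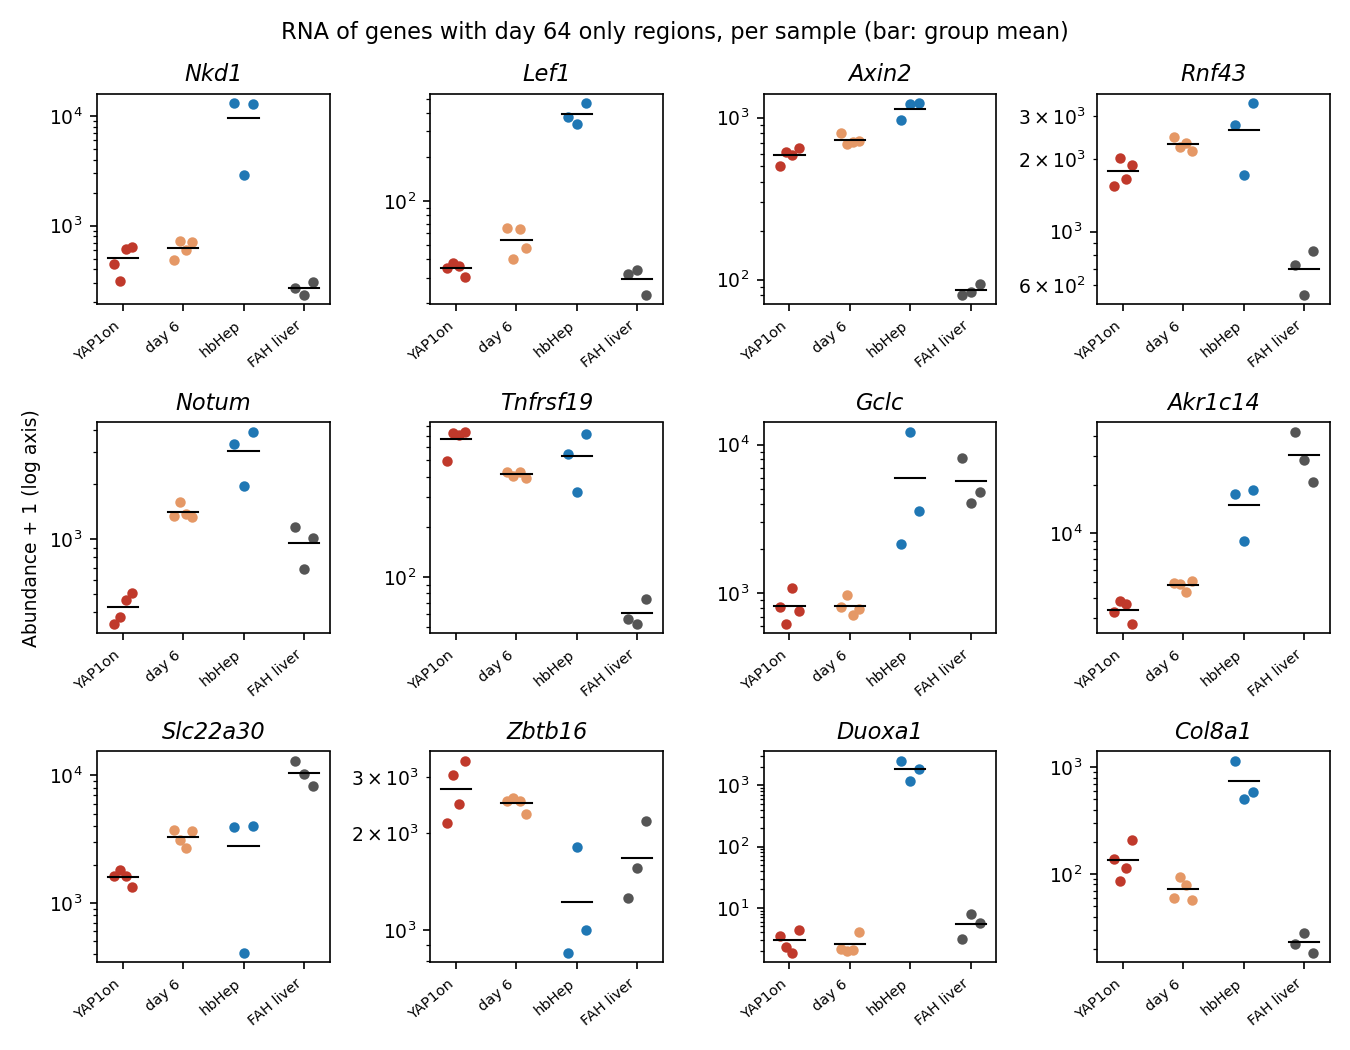
RNA abundance + 1 (log axis) in each sample of YAP1on tumors (n = 4), day 6 tumors (n = 4), hbHep (n = 3) and FAH liver (n = 3), for 12 genes with day 64 only regions; bars are group means. Nkd1, Lef1, Axin2, Duoxa1 and Col8a1 have all hbHep points above all others, while Slc22a30 and Gclc each have hbHep mouse 2 apart from the other two.

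Across all genes, the share with higher RNA in hbHep was larger where a gene held more members. Among 14004 tested genes with no member in the body 19.4% were higher than in FAH liver and 17.4% lower, and among 65 genes with 20 or more members 47.7% were higher and 12.3% lower. Against YAP1on tumors the share higher was 26.6% without members and 76.9% with 20 or more, and against day 6 tumors 22.6% and 67.7%. The 3 comparisons share the hbHep samples. Gene length and level moved with the count: the median span was 16.4 kb and the median hbHep abundance 193 without members, and 93.7 kb and 2030 with 20 or more. Their part in the difference was not tested. Among genes with at least 20 day 64 intervals, 37.4% of the 342 with 10% or more members were higher than in FAH liver, against 22.2% of the 2636 with none; median abundances were 687 and 722, and median spans 71.2 and 35.5 kb.

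**Figure D4:**
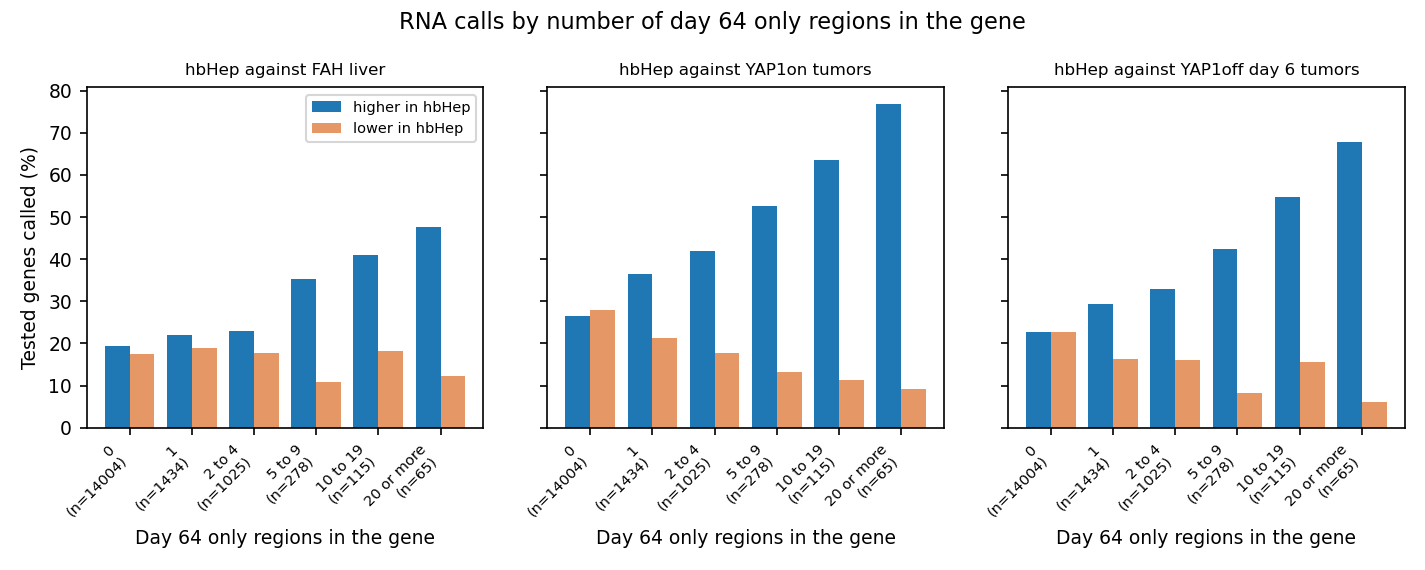
Tested genes with higher or lower RNA in hbHep (%, limma, adjusted p under 0.05), by the number of day 64 only regions inside the gene, in 3 comparisons that share the hbHep samples; n is the number of tested genes. Against FAH liver the share higher goes from 19.4% (no region) to 47.7% (20 or more).

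In promoter windows, 181 genes had a member and 158 of them were tested. RNA of 62 was higher in hbHep than in FAH liver (39.2%, where 19.9% of all tested genes were higher) and of 15 lower (9.49%, all genes 17.1%), with a median difference of 0.37 against -0.03 over the 12647 tested genes with a RefSeq start. Against YAP1on tumors 72 were higher (45.6%, all genes 28.8%) and 32 lower (20.3%, all genes 26.3%). Against day 6 tumors 56 were higher (35.4%, all genes 24.1%) and 17 lower (10.8%, all genes 21.7%), and under quantile normalization 27 were lower.

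The largest rise among them was Duoxa1, with 2 members in its window. Its RNA was 2469, 1159 and 1812 in hbHep, 2.079, 7.057 and 4.579 in FAH liver, and at most 3.408 in any tumor. The difference from FAH liver was 8.39 ± 0.45 (limma, adjusted p = 4.7e-09). Col8a1 had 5 members in its window and 19 among 27 intervals of its body. Its RNA was 1140, 504.6 and 589 in hbHep, 21.07, 27.28 and 17.45 in FAH liver, 85.19 to 205.9 in YAP1on tumors and 56.81 to 92.39 in day 6 tumors (4.95 ± 0.33 against FAH liver, 4.64e-08). The other rises of the 8 largest were Gm42517 (6.48 ± 0.52), the organic cation transporter Slc22a3 (5.02 ± 0.18), Nkd1, Brinp3 (4.28 ± 0.61), the cytochrome P450 Cyp2c55 (3.94 ± 0.27) and Lef1. The rule that names these genes requires that hbHep and FAH liver do not overlap.

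The largest fall was Hsd3b5, a male-biased steroid dehydrogenase of mouse liver, with RNA of 14.6, 1.977 and 8.01 in hbHep and 492.4, 667.7 and 134.6 in FAH liver (-5.57 ± 0.69, limma, adjusted p = 1.85e-05). The labels do not give the sex of the mice. Acsm2 was lower by -2.75 ± 0.35 (2.48e-05) and the nucleotide receptor P2ry4 by -1.87 ± 0.28 (9.39e-05). The alcohol dehydrogenase Adh4 (-1.36), Prss12 (-1.12), the gap junction protein Gjb1 (-0.96), the RNA-binding protein Rbm47 (-0.90) and Gcsh of glycine cleavage (-0.87) completed the 8. The call of Prss12 was lost without hbHep mouse 2 or 3 or FAH liver 1 or 2 (adjusted p = 0.0596 to 0.118), and that of Rbm47 under quantile normalization (-0.43, 0.0714). Hmga2, a chromatin protein of fetal tissues, had 2 members in its window and a difference of 0.73 ± 0.22 (0.0176), which did not pass without hbHep mouse 2 (0.0688) or FAH liver 1 (0.0703), nor in a fit of the 2 groups alone (0.112). Under quantile normalization it was 0.40 (0.128).

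Of the 10 widest members (291 to 492 bp), 4 lay inside Nkd1 and 1 in the run before it. The widest, chr8:88592987-88593478, was 492 bp wide, inside Nkd1 near its end, and its nearest start was that of Nod2 at 54114 bp; Nod2 had no member in its own body. The others were at Serpina1e, Sptb, Ptn, Axin2 and Prmt6, and 5 of the 10 overlapped a YAP1on interval. Sptb, the beta chain of spectrin, had 33 members and RNA of 996.9, 595.9 and 1349 in hbHep against 128.6 to 170 in FAH liver (2.60 ± 0.26, limma, adjusted p = 2.98e-06). Its RNA was 685.6 to 1032 in day 6 tumors (0.11 ± 0.25, 0.732). In YAP1on tumors it was 1092 to 1896 (-0.67 ± 0.25, 0.0324), with groups that overlapped, and this call was lost under several settings, among them without hbHep mouse 2 (-0.35, 0.213). Serpina1e, one of several near-identical antitrypsin genes and so uncertain, had 15 members and RNA of 43.86, 15.94 and 81.22 in hbHep against 399 to 425.7 in FAH liver (-3.38 ± 0.47, 5.28e-05). It was 5111 to 7102 in YAP1on tumors (-7.25 ± 0.44, 5.5e-09) and 4505 to 15870 in day 6 tumors (-7.43 ± 0.44, 5.29e-09). Ptn and Prmt6 did not pass against FAH liver (adjusted p = 0.718 and 0.859). Prmt6, an arginine methyltransferase, exceeded YAP1on tumors by 0.71 ± 0.14 (0.000398) and day 6 tumors by 0.47 ± 0.14 (0.0103), the latter not without hbHep mouse 2 (0.0612).

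Promoter letters were read in the 71 RefSeq windows, from 250 bases before to 50 after a start, that a member overlapped. They belong to 65 genes. The letters CAAAGTCC, bound by HNF4A, stood on either strand in 6 of the 71 (8.45%), against 1.44% of all 20740 windows and 1.46% of those with any day 64 interval; both windows of Tmem150c hold the same site. The Col8a1 stretch above has them inside a member. TTGCNNAA (CEBP) stood in 15.5% of the 71, in 10.2% of all windows and in 8.48% of those with any day 64 interval. For AGGTCA (nuclear receptors) these shares were 21.1%, 14.5% and 12.5%, for ATCAAAG (TCF/LEF) 2.82%, 3.26% and 2.53%, and for GGGCGG (SP/KLF) 42.3%, 47.2% and 65%. Of the 14 letter patterns searched, the HNF4A letters had the largest ratio of shares among those found in the 71 windows. The median GC content of the 71 was 57.7%, against 56.7% of all windows and 61.3% of those with any day 64 interval. A match is a string of letters, not a bound site.

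Marker genes of cell types were counted too. At day 64 an interval lay in the promoter window of all 4 hepatocyte and all 12 endothelial markers with a RefSeq start. The same held for 8 of 14 stellate cell, fibroblast and matrix genes and 6 of 13 cholangiocyte and progenitor markers. It held for 5 of 15 macrophage markers, 2 of 12 neutrophil markers and 1 of 14 lymphocyte markers. Of 12647 tested genes with a RefSeq start, 10343 had such an interval. Most genes thus had one, so the counts of hepatocyte and endothelial markers do not tell which cells were present. None of the hepatocyte, cholangiocyte or neutrophil markers had a member in its body (0 of 578, 0 of 232 and 0 of 9 intervals), and neither had the 25 cell division genes (0 of 114). Macrophage markers had 2 of 49, lymphocyte markers 1 of 47, endothelial markers 5 of 417 and stellate cell, fibroblast and matrix genes 2 of 126. The share over the day 64 list was 3.4%, and lists of 9, 47 and 49 intervals are too short to set against it. In RNA, the hepatocyte markers had a summed abundance between 254500 and 361300 in hbHep and between 953300 and 1164000 in FAH liver. Of these 6 genes none was higher and 4 were lower in hbHep, or 3 lower under quantile normalization. Macrophage markers summed to 15470 to 41200 and 9245 to 14730, with 13 of 20 higher in hbHep and 1 lower (all genes, 19.9% and 17.1%). Lymphocyte markers summed to 1294 to 2636 and 506.2 to 585.6, with 13 of 19 higher and none lower, beside the same shares of all genes. Of 18 cholangiocyte and progenitor markers 8 were higher and 1 lower. For 20 stellate cell, fibroblast and matrix genes the counts were 5 and none, and for 11 neutrophil markers 4 and none. Of 20 endothelial markers none was higher and 4 were lower. The part of these cell types in the RNA differences above was not tested.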

How the data were processed

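ATAC intervals were deposited by the authors as 1 list per library on mm10, for which the submitters' processing notes name Picard, SAMtools, BWA, cutadapt and bcl2fastq; the program that called the intervals is not given in the sources used here. RNA was deposited by the authors as a signal per gene (scaled reads per base); the notes name sleuth, kallisto 0.45.0 and the build GRCm38.p6. The sources give no read depth.

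Here, intervals were compared with bedtools 2.31.1. Genes and starts came from RefSeq tables (29728 RNA genes matched, 17016 with a start); exons and introns were not resolved. Each hbHep mouse has 2 technical libraries, whose mean was used, which gave 14 samples, and rescaled by median-of-ratios factors (0.9632 to 1.1). The summed deposited signal was 15.99 to 42.12 M (mega) per sample. Genes with an abundance of at least 10 in at least 3 samples (17953) were tested on log2(abundance + 1) with limma 3.58.1 (1 model of 4 groups, trend, Benjamini-Hochberg over all genes, threshold 0.05); the method was tested on simulated data. Tumors of 1 mouse were treated as replicates. All groups share 1 estimate of the spread, so every p-value, also against FAH liver, mixes spread between mice with spread between tumors of 1 mouse. Calls against FAH liver that were lost in a limma fit of hbHep and FAH liver alone included Pid1 (adjusted p = 0.08), Akr1c14 (0.0649) and Aox1 (0.121). Cyp3a11 (0.0532), Prss12 (0.071), Dkk4 (0.0505) and Hmga2 (0.112) were lost there too.

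Members and gene lists were chosen with earlier results of these data known. Genes were named as the nearest to the 10 widest members, the 8 largest rises and falls among genes with a promoter member and groups that do not overlap, the 8 nearest to most members, and listed genes with a promoter member. The 20 genes with the most members in the body, the 3 lists of Wnt, NRF2 and folding genes, their named members, the runs and the bins by member count were added after values were seen. Motifs in windows centred on members were planned and not run, since no genome sequence was used here. Alternatives covered the region rule, the promoter window, pseudocount, filter, scaling, the replicate block and leaving out each sample. 1 gene that these rules name, with the run of members at it, is not reported here.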

Additional observations from a re-analysis of the deposited data

Results flagged for a closer look

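In 13 of 160 groups of 4 tumors (80 named genes), 1 tumor stood far from the other 3, by a gap that took up most of the group's range; chance alone marks about 1 group in 20. Among day 6 tumors the tumor apart had an abundance of 15870 for Serpina1e (others 4505 to 6090), 3.027 for Duoxa1 (1.021 to 1.152), 5.224 for Acsm2 (3.436 to 3.736), 41.24 for Hmga2 (48.89 to 49.57) and 1594 for Notum (1333 to 1370). Among YAP1on tumors it had 0 for Hsd3b5 (0.6274 to 0.7484), 697.2 for Gcsh (941.9 to 983.9), 1178 for Pid1 (1453 to 1501), 496.8 for Tnfrsf19 (712.2 to 737.9), 4.153 for Hcrtr2 (0.3788 to 0.7484), 282.4 for Tcf7 (395.5 to 415), 4263 for Hsp90b1 (6537 to 6896) and 1830 for Pdia4 (2965 to 3065). Groups of 3 were not examined in this way.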

How the results depend on the processing

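The number of day 64 only regions followed the rule closely: it was 2946, 480 and 111 with a minimum width of 100, 150 and 200 bp, 8578 when no other interval lay within 200 bp, 42412 when a region was removed only if 50% of it was covered, and 40560 when the other lists were limited to 50 bp or more. The share in promoter windows was 1.04% and 0.901% at 150 and 200 bp, 0.769% with the 200 bp distance, 2.18% with the 50% cover, 1.75% with limited lists, 1.19% without regions overlapping YAP1on, 0.454% in a window of 250 bp before to 50 bp after a start and 6.22% in one of 2500 bp on both sides. With the narrow promoter window 24 genes were higher and 5 lower than FAH liver, 30 and 9 than YAP1on tumors, and 25 and 4 than day 6 tumors. With the nearest start within 100 kb the counts were 792 and 628, 1318 and 722, and 1073 and 564. At 150 bp they were 1 and 0, 1 and 0, and 0 and 0. Under quantile normalization 27 genes were lower than day 6 tumors, and the difference of Aox1 from FAH liver turned to 0.03. Under that setting the folding genes lower than FAH liver were 8 in place of 12, and 7 were higher and 4 lower than YAP1on tumors in place of 9 and 1. With the replicate block the promoter counts were 63 and 13, 66 and 29, and 53 and 15; the same-numbered samples correlated from -0.0843 to 0.187, so the numbers do not pair them. Leaving out 1 sample gave 55 to 62 genes higher than FAH liver and 11 to 14 lower. The counts of genes with 10 or more members in the body, added after seeing the data, ranged over the RNA settings from 68 to 84 higher than FAH liver (78 in the model as reported) and from 20 to 33 lower (29). Of single-gene values under other settings, 88 lost the threshold in the same direction, 1 (Aox1, above) lost it and changed sign, 29 gained it and 3596 did neither. For counts that moved, the construction of the alternative sets the number of regions or genes; for quantile normalization the cause was not tested.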

Other observations

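Some genes had many members and RNA that differed from the tumors but not from FAH liver. Pdzk1, a scaffold protein of membrane transporters, had 27 members among 89 intervals, 3 of them in promoter windows; its RNA exceeded YAP1on tumors by 2.39 ± 0.21 (limma, adjusted p = 2.04e-07) and FAH liver by 0.06 ± 0.22 (0.87). Ephx1, an epoxide hydrolase, had 27 among 99, with differences of 2.26 ± 0.18 (9.39e-08) and -0.19 ± 0.19 (0.481). Whether the differences from the tumors and from FAH liver themselves differ was not tested.

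Arnt2, a bHLH-PAS factor, had 6 members in a promoter window, among them 1 of 175 bp, and low RNA that varied within groups: 4.787, 35.54 and 8.998 in hbHep and 1.463, 63 and 0.4118 in FAH liver, with mouse 2 the highest in each. The difference of 1.08 ± 1.08 (limma, adjusted p = 0.467) was 2.78 (0.00976) without FAH liver 2. Galnt18, a glycosyltransferase, had 48 members among 59 intervals of its body; its RNA was 205.8, 206.8 and 204.9 in hbHep and 82, 68.43 and 74.84 in FAH liver (1.45 ± 0.16, limma, adjusted p = 5.62e-06). Hcrtr2, the orexin receptor 2, had 44 members among 105 intervals and RNA of 199.9, 58.62 and 155.6 in hbHep, 18.13 to 37.14 in FAH liver and at most 4.153 in any tumor.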
